A study of Mus musculus with 9 samples.

Results

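The genes described here encode the factors that start and extend protein chains on the ribosome outside the cap-binding step: the initiation factors eIF1, eIF2, eIF2B, eIF3, eIF5, eIF5A, eIF5B and eIF6 and the elongation factors eEF1 and eEF2, with a few genes that share their symbols' first letters. They were chosen by symbol. Of the 22036 genes in the per-library table, 54 carried one of these prefixes. The 4 eIF2 kinases and 6 pseudogenes were left out, 3 genes did not reach a linear value of 10 in at least 3 libraries, and 41 genes remained. Those under the minimum were Eef1a2, Eef1akmt3 and Eif2s3y, which were at 1.04 or less on the log2 scale in all 9 libraries. Eif2s2 and Eif3m, which encode further subunits of eIF2 and eIF3, were not analysed here.

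Microglia, the macrophages that live in brain tissue, were isolated by flow cytometry from female wild-type C57BL/6 mice, and their RNA was sequenced. The mice were 6 months old (young), 15 months old (middle-aged) or 23 months old (old), and the labels name no treatment. Each age had 3 libraries, and each library was made from RNA pooled from 3 mice, so the replicate spread is that between pools. The series title concerns translation under the control of mTOR in ageing microglia, and these transcripts encode much of the machinery that carries translation out. Transcript levels only were measured, not proteins, phosphorylation or translation.

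In initiation, eIF2 brings the initiator tRNA to the small ribosomal subunit, eIF1 and eIF1A keep the subunit open while it scans the message, and eIF3 is the large scaffold that holds these parts together. eIF5 triggers GTP hydrolysis by eIF2, eIF2B reloads eIF2 with GTP, and eIF5B joins the large subunit. In elongation, eEF1A carries each aminoacyl-tRNA to the ribosome, the eEF1B subunits reload eEF1A with GTP, and eEF2 moves the ribosome along by a codon. Many of these factors are made from messages that begin with a 5-prime terminal oligopyrimidine tract (TOP), a stretch of C and T whose translation depends on mTORC1.

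Facts of the whole series that bear on these genes are as follows. Values are on a log2 scale of normalized counts, the read depth is unknown, and 14955 genes were tested. Old replicate 3 stood apart: its residual SD over all genes was 0.202, against 0.0717 to 0.149 in the other libraries, and over the 41 members it was 0.169, against 0.0637 to 0.119. Microglial genes were abundant throughout, with 7 of 8 listed markers measured and a summed linear level of 1240560 to 1412580 in young and 967837 to 1188800 in old libraries. Of these 7, limma called Siglech as lower in old libraries. Border macrophage markers (8 of 8 measured) also summed to less in old libraries, 78603 to 101893 beside 124609 to 133568 in young ones, and limma called Stab1 among them as lower. The summed level of 6 of 7 astrocyte markers, 16645 to 18545 in old and 20646 to 21992 in young libraries, is mostly that of Slc1a3 (-0.31), and the other 5 overlapped between these ages. Oligodendrocyte markers (8 of 8 measured, Olig2 at the bottom of the scale) summed to 4413 to 6000 in old and 3638 to 4066 in young libraries, and limma called Cspg4 as higher (1.31).

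Neutrophil markers were present as well (12 of 12, none at the bottom of the scale). They ranged from 319610 to 552516 in young, from 482162 to 1044970 in middle-aged and from 264409 to 536294 in old libraries, so old and young libraries overlapped. The 8 monocyte markers summed to between 56100 and 68936 in young and between 58652 and 83251 in old libraries, and limma called Plac8 and Fn1 among them as higher (1.03 and 0.98), while F13a1, also on the border macrophage list, was at -0.46 without a call. Endothelial markers (6 of 6) summed to 3473 to 3959 in young and 3174 to 3920 in old libraries, with Flt1 called higher (1.29). Pecam1 went the other way, at -0.40 without a limma call, and was lower in the authors' deposited table (adjusted p = 0.0387). Cldn5 and Cdh5 were both at 0.08, Kdr at -0.07 and Tek at -0.08. The 8 T and NK cell markers summed to 1493 to 1769 in young and 1681 to 1871 in old libraries, with Cd8a called higher (0.25). Of 9 neuronal markers 8 were measured and 5 tested, with sums between 373 and 463 in all libraries. Immediate early genes, which respond to handling, summed to 384747 to 502657 in middle-aged libraries. They summed to 290688 to 382540 in young and to 286063 to 317330 in old libraries. Of these 10 genes, limma called Fosb and Egr1 lower in old than in middle-aged libraries. For old against young libraries limma called 0 of them, and the authors' deposited table called 1 higher and 2 lower. The part of these cells and genes in the results below was not tested. Without old replicate 3, old minus young moved by over 1.5 times in 22 of the 41 members and changed sign in 2 (Eef2kmt and Eif2s1). Of the 8 members called in the authors' deposited table, 0 moved that far. A ratio moves easily where a difference is near 0. Those 8 had been called for their differences with that library included, so the contrast is no test of their stability. Without that library limma called neither Eif3h (adjusted p = 0.0567, Benjamini-Hochberg) nor Eef1a1 (0.0696). In bulk RNA of this kind, fewer cells of a type and less RNA per cell cannot be told apart.

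Between 6 and 23 months, RNA of an eIF3 subunit and of the main elongation factor was higher in the old libraries. On the deposited log2 scale Eif3h rose 1.35-fold and Eef1a1 1.41-fold. Another 0 members rose and 0 fell at an adjusted p under 0.05 (limma, Benjamini-Hochberg over all genes tested). How that scale was made was not stated. The log2 differences behind these folds, 0.43 and 0.49, were smaller than the authors' log2 fold changes of 0.54 and 0.57. Over all genes tested, 1.7% were called higher and 0.301% lower. The 2 of 41 members are a larger share, but 2 genes are too few to read as a result about the members. At an unadjusted p under 0.05, 10 of 41 members were higher, a larger share than the 9.07% of all genes. Another 2 of 41 were lower, a smaller share than the 7.69% of all genes. The median member had a log2 difference of 0.11, beside -0.01 over all genes tested, and 31 of 41 members were above 0. The old libraries were all above the young ones in 12 of 41 members, a larger share than the 12.2% of all genes. They were all below in 1 of 41, a smaller share than the 12.3% of all genes. Whether these shares differ was not tested. Neither call was stable to single libraries. With each of the 9 libraries left out in turn, Eif3h was called in 2 fits (without young replicate 2 or middle-aged replicate 3) and Eef1a1 in 1 (without middle-aged replicate 3). The adjusted p then ran from 0.0339 to 0.18 for Eif3h and from 0.0326 to 0.22 for Eef1a1 (limma, Benjamini-Hochberg). Of 10 other settings, Eif3h lost its call with no filter on low values (adjusted p = 0.0529), a block for replicate number (0.0649) and the 2 ages fitted alone (0.0784). Eef1a1 lost its call with no filter (adjusted p = 0.0687), a pseudocount of 8 (0.0523), no variance trend (0.0631) and the 2 ages alone (0.0694), all by limma with Benjamini-Hochberg adjustment.

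The authors' deposited comparison tables, made from the same libraries, called more members. For old against young they listed 8 of 41 members as higher (Eef1a1, Eef1b2, Eef1g, Eif3e, Eif3h, Eif3k, Eif5a and Eif5a2) and 0 as lower at an adjusted p under 0.05, beside 4.72% of all genes higher and 2.9% lower there. That is 19.5% of the members. Both genes called by limma were among these 8. The other 6 had adjusted p between 0.0543 and 0.0766 in the limma fit (Benjamini-Hochberg), just outside its threshold. Their fold changes were also larger in the authors' table: over its 1230 called genes, the difference in the per-library table was a median 0.745 of the authors' log2 fold change. The sign was the same for 40 of the 41 members. The exception was Eef2kmt, at -0.00 in the per-library table and 0.00 in the authors' deposited table.

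**Figure D1:**
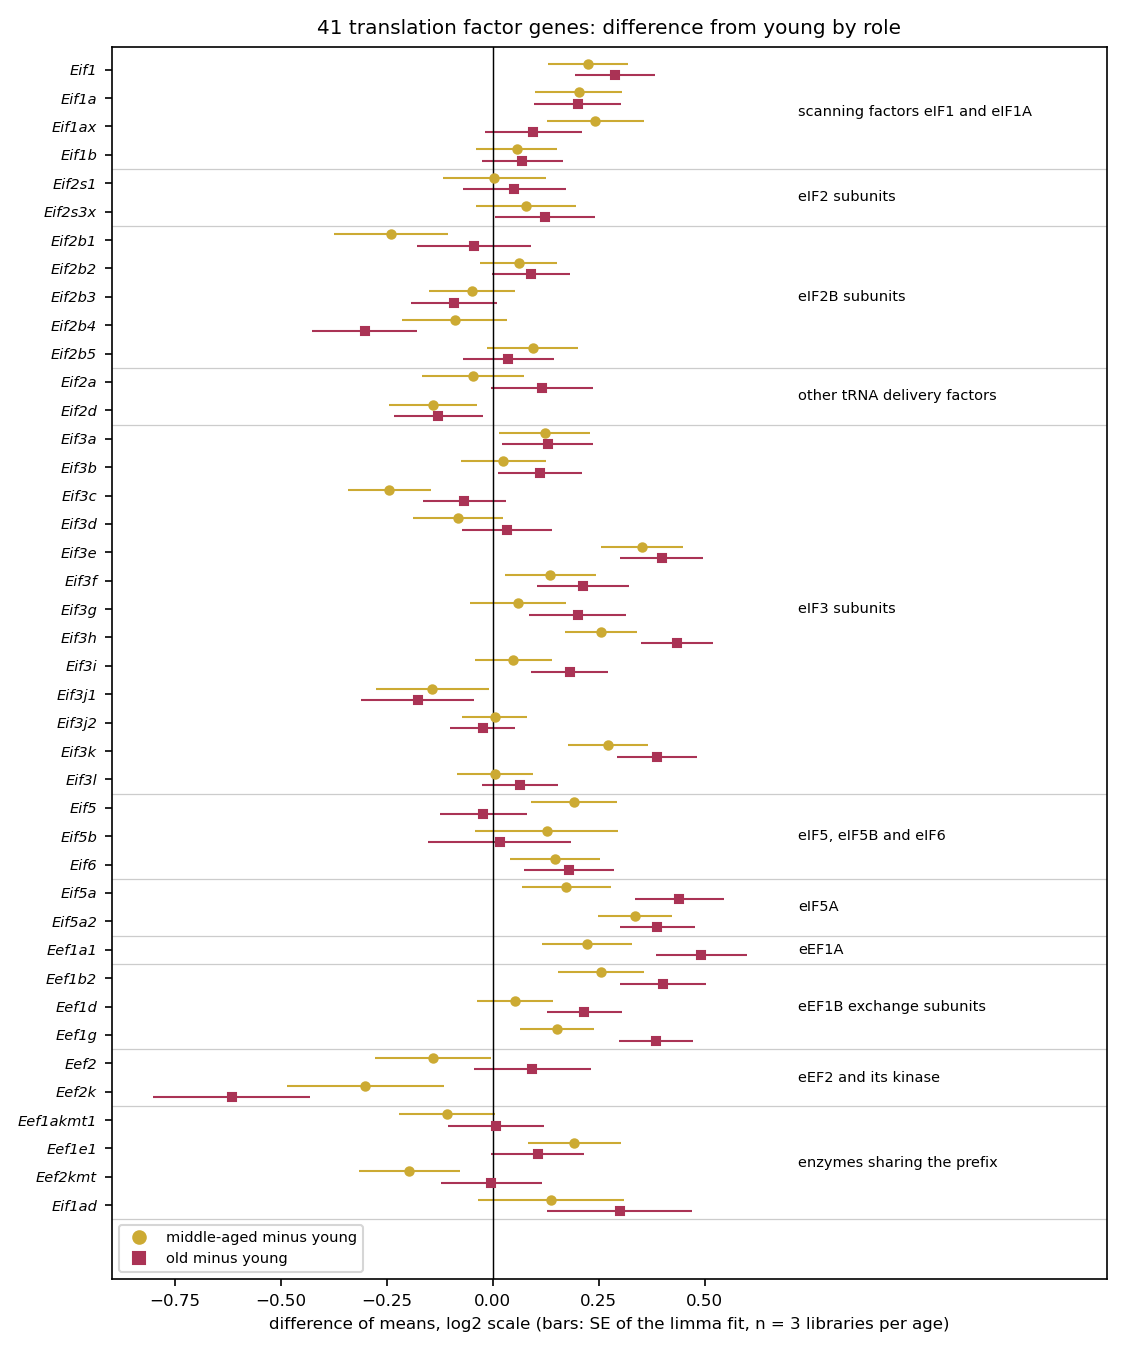
Difference from young on the log2 scale for each of the 41 genes (mean of 3 middle-aged or old libraries minus mean of 3 young libraries, bars are the SE of the limma fit), grouped by role. Eef1a1, the eEF1B subunits, both eIF5A genes and Eif3e, Eif3h and Eif3k lie to the right of 0 at both ages, and Eef2k lies to the left.

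The elongation factor eEF1A, encoded in these cells by Eef1a1, was the most abundant member per length. Its linear normalized value per kilobase of transcript was 52154 ± 5604 in young libraries (SD, n = 3), beside 13175 ± 1106 for Eef2 and 11640 ± 1042 for Eif1, the next highest members. On the log2 scale Eef1a1 was at 16.53, 16.65 and 16.34 in young replicates 1 to 3, at 16.88, 16.77 and 16.54 in middle-aged ones and at 17.00, 17.09 and 16.91 in old ones. All 3 old libraries were above all young and middle-aged libraries, and the middle-aged libraries overlapped the young ones. The difference between old and young was 0.49 ± 0.11 (SE, limma adjusted p = 0.0463, Benjamini-Hochberg), and the authors' deposited table gives 0.57 with an adjusted p of 0.00112. Eef1a1 lies on chromosome 9 at 78478449 to 78489151, minus strand, of GRCm38. Of its transcript's 50-base words, 59.2% also occur in transcripts of other genes, mostly processed pseudogenes, so the assignment of its reads is uncertain. Its relative Eef1a2, known as the form of neurons and muscle, was at -1.82 in every library, the bottom of the scale.

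The exchange subunits of eEF1B had positive differences too. Eef1g, encoding the gamma subunit, was at 11.74, 11.80 and 11.72 in young libraries, at 12.03, 11.86 and 11.82 in middle-aged ones and at 12.18, 12.10 and 12.14 in old ones. The 3 ages did not overlap for this gene in any pair. The old libraries exceeded the young ones by 0.39 ± 0.09, which did not pass in the limma fit (adjusted p = 0.0555, Benjamini-Hochberg), whereas the authors' deposited table gives 0.53 with an adjusted p of 2.8e-05. Eef1g shares 64.3% of its 50-base words with 5 pseudogenes.

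Eef1b2, encoding the catalytic beta subunit, was at 12.40, 12.43 and 12.23 in young, 12.66, 12.70 and 12.46 in middle-aged and 12.83, 12.64 and 12.80 in old libraries. Its young libraries were below all 6 others. The old libraries differed from them by 0.40 ± 0.10 (limma adjusted p = 0.0766, Benjamini-Hochberg), and 0.51 with an adjusted p of 0.00436 in the authors' deposited table. Exons of Ndufs1 overlap Eef1b2 on the other strand, and as no source used here says whether counting used strand, reads of the pair cannot be told apart there. Eef1d, encoding the delta subunit, had values of 12.62, 12.73 and 12.65 in young, 12.79, 12.75 and 12.63 in middle-aged and 12.99, 12.85 and 12.81 in old libraries. Its old libraries were above all the others, with old minus young at 0.22 ± 0.09 and no call in either source.

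Neither the translocase nor its kinase was called by limma. Eef2 was at 15.33, 15.42 and 15.18 in young libraries, at 15.38, 15.16 and 14.97 in middle-aged ones and at 15.56, 15.53 and 15.12 in old ones, with a difference of 0.09 ± 0.14 and overlapping groups. Without old replicate 3, its lowest old library, the Eef2 difference was 0.23. Eef2k encodes the kinase that phosphorylates eEF2 and slows elongation, and it was the member with the lowest difference. Its values were 12.72, 12.72 and 12.58 in young, 12.41, 12.26 and 12.44 in middle-aged, and 12.41, 12.22 and 11.54 in old libraries. Every middle-aged and old library was below every young one. The old mean differed from the young one by -0.62 ± 0.19 and did not pass (limma adjusted p = 0.125, Benjamini-Hochberg). The size rests in part on 1 library, as the difference was -0.36 without old replicate 3 (limma adjusted p = 0.134, Benjamini-Hochberg). For middle-aged against young, where old replicate 3 takes no part in the means, the authors' deposited table lists Eef2k as lower, with -0.38 and an adjusted p of 0.0293. The limma difference there was -0.30 ± 0.19 (adjusted p = 0.611, Benjamini-Hochberg), with old replicate 3 in the pooled spread. An annotated antisense gene, Gm15774, overlaps exons of Eef2k.

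**Figure D2:**
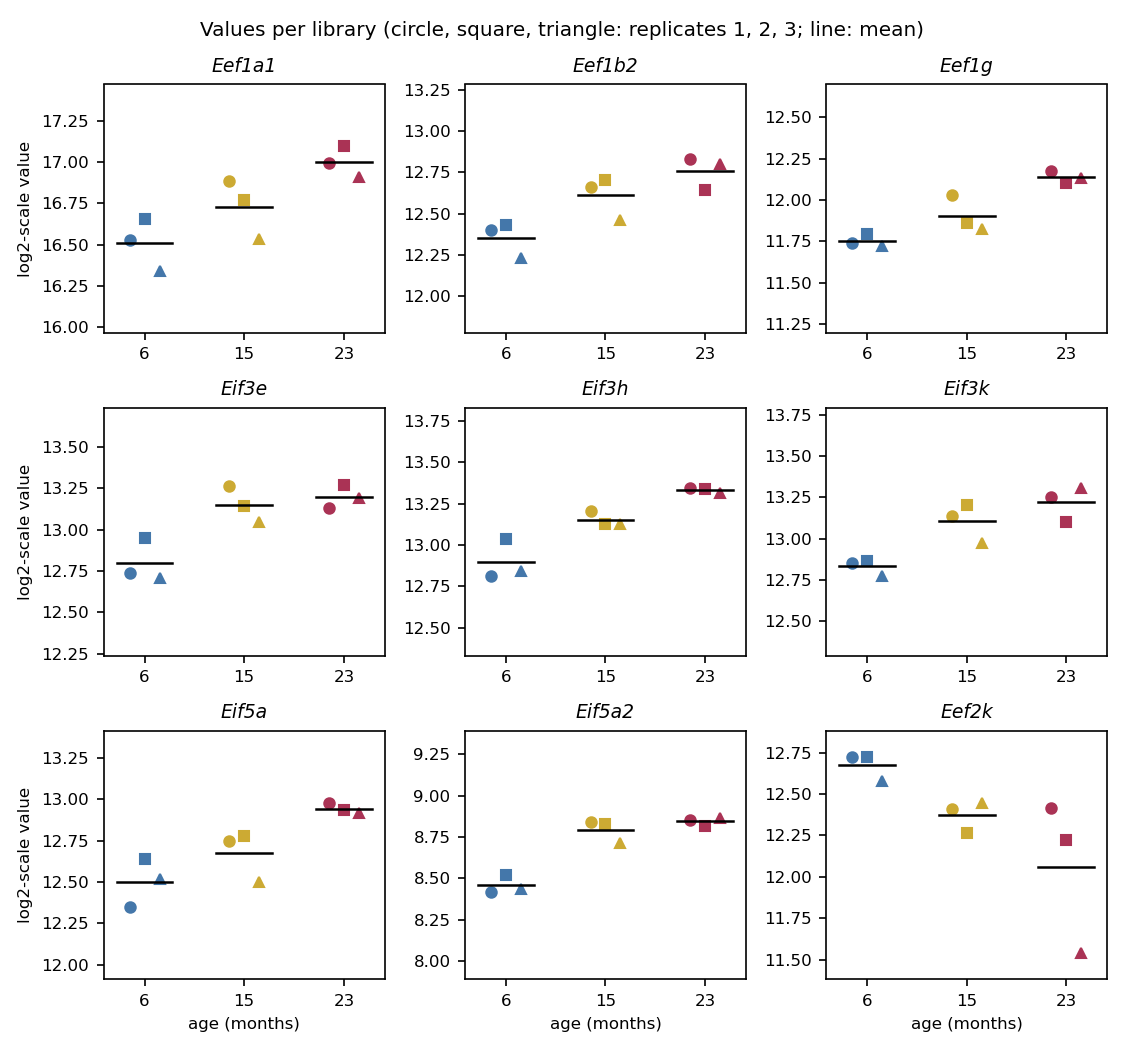
Log2-scale values of 9 members in each library against age in months, with replicates 1, 2 and 3 as circle, square and triangle and the mean as a line. Each panel spans the same 1.5 log2 units. In Eef2k, old replicate 3 at 11.54 is far below the other 2 old libraries.

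Of the 13 eIF3 genes measured, 1 rose in old against young libraries (Eif3h), 0 fell and 12 were not called by limma, which called 1.7% of all genes higher. The authors' deposited table called 3 (Eif3e, Eif3h and Eif3k) as higher, beside 4.72% of all genes. The median difference of the 13 was 0.13, and they ranged from -0.18 for Eif3j1 to 0.43 for Eif3h.

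Eif3h, encoding a subunit of the eIF3 module that carries MPN and PCI folds, was at 12.81, 13.04 and 12.84 in young libraries, at 13.20, 13.12 and 13.13 in middle-aged ones and at 13.35, 13.34 and 13.31 in old ones. The ages did not overlap in any pair, and the old libraries were close together (SD 0.016). The rise from young to old was 0.43 ± 0.09 (limma adjusted p = 0.0327, Benjamini-Hochberg). The gene lies on chromosome 15 at 51786558 to 51865523, minus strand, and 26.2% of its 50-base words occur in pseudogenes. In the authors' deposited table it had 0.54 with an adjusted p of 0.000424.

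Eif3e, encoding a PCI subunit of the same scaffold, was at 12.74, 12.95 and 12.71 in young, 13.26, 13.14 and 13.05 in middle-aged and 13.13, 13.27 and 13.19 in old libraries. Its middle-aged libraries were all above the young ones and overlapped the old ones. Eif3e shares 22.0% of its 50-base words with 4 pseudogenes. Middle-aged minus young was 0.35 ± 0.10 (limma adjusted p = 0.222, Benjamini-Hochberg), and the authors' deposited table lists 0.41 with an adjusted p of 0.0384. Eif3k, the smallest subunit's gene, was at 12.85, 12.87 and 12.78 in young, 13.14, 13.21 and 12.97 in middle-aged and 13.25, 13.10 and 13.31 in old libraries. All young libraries were below all others. None of the 50-base words of Eif3k occurs in another annotated transcript, and its old minus young difference was 0.39 ± 0.09 (limma adjusted p = 0.0667, Benjamini-Hochberg).

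Other core subunits gave smaller values. Old minus young was 0.13 for Eif3a and 0.11 for Eif3b, which encode the core subunits that hold the complex together, and -0.07 for Eif3c, their PCI partner. Without old replicate 3 these became 0.22, 0.04 and -0.01. Eif3c was at 13.40, 13.45 and 13.40 in young, 13.35, 13.12 and 13.06 in middle-aged and 13.41, 13.41 and 13.24 in old libraries, so its middle-aged libraries were below all young ones (-0.24 ± 0.10, limma adjusted p = 0.369, Benjamini-Hochberg). Eif3f, Eif3g and Eif3i had 0.21, 0.20 and 0.18, Eif3d 0.03 and Eif3l 0.06. Eif3j1 and Eif3j2, which encode the loosely bound j subunit, had -0.18 and -0.02. Without old replicate 3, Eif3d was at 0.08, Eif3j1 at -0.30 and Eif3j2 at -0.05. Eif3j2 shares 90.8% of its 50-base words with Eif3j1, so how reads were divided between them is uncertain.

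Levels of eIF3 transcripts per length covered a wide range although the subunits form a common complex. In young libraries the linear value per kilobase was 9430 ± 320 for Eif3k, 5906 ± 503 for Eif3h, 5655 ± 326 for Eif3l and 4744 ± 449 for Eif3e (SD, n = 3). It was 458 ± 27.4 for Eif3b, 270 ± 22 for Eif3f and 185 ± 2.74 for Eif3j1. The levels of Eif3h and Eif3l did not differ beyond their SDs in young libraries, whereas in old libraries Eif3h was at 7965 ± 90.8 and Eif3l at 5907 ± 174. Eif3k, Eif3h and Eif3e, the subunits called in the authors' deposited table, were thus among the 4 with the highest young levels. Length was that of a principal GENCODE transcript, and another isoform in these cells would shift the value.

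**Figure D3:**
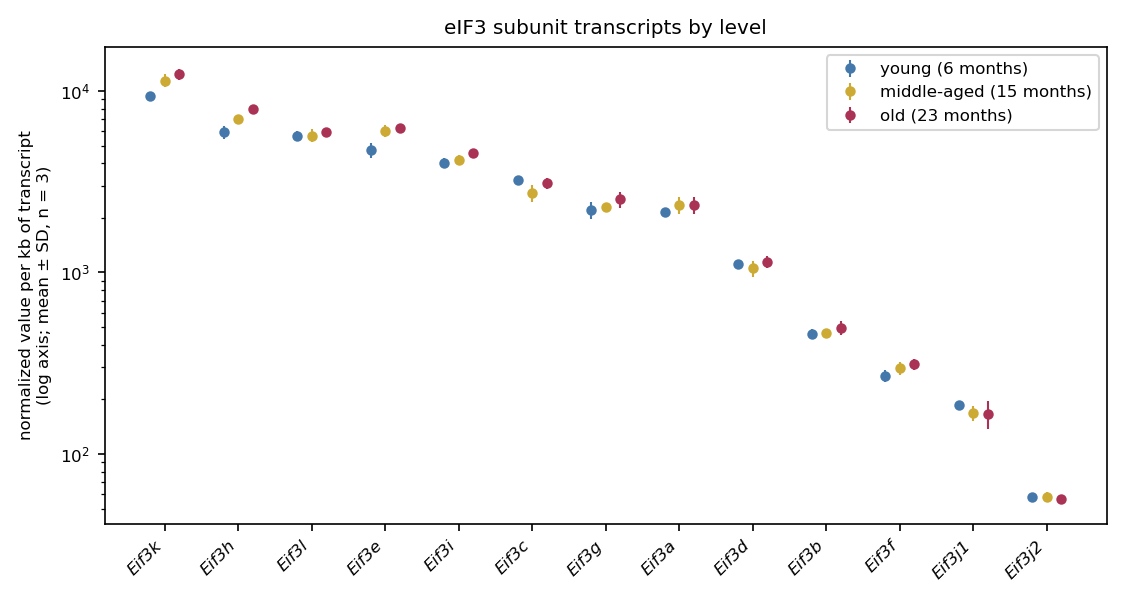
Linear normalized value per kilobase of transcript (log axis) for the 13 eIF3 genes at 3 ages, mean ± SD over 3 libraries, in order of the young level. Eif3k, Eif3h and Eif3e have higher means at each later age. So do Eif3a, Eif3b, Eif3f, Eif3g, Eif3i and Eif3l, by smaller folds from young to old. The SD bars of Eif3l, Eif3a and Eif3d overlap between ages.

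The eIF5A genes were the other pair with higher values in old libraries. eIF5A carries the amino acid hypusine and helps the ribosome through difficult peptide bonds such as runs of proline. Eif5a was at 12.35, 12.64 and 12.52 in young, 12.75, 12.78 and 12.50 in middle-aged and 12.98, 12.93 and 12.92 in old libraries. The old libraries were above all others. The difference from young was 0.44 ± 0.11 (limma adjusted p = 0.0648, Benjamini-Hochberg) and 0.54 with an adjusted p of 0.00194 in the authors' deposited table.

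Eif5a2, its much less abundant relative, was at 8.42, 8.52 and 8.43 in young, 8.84, 8.83 and 8.71 in middle-aged and 8.85, 8.82 and 8.86 in old libraries. Both later ages were above young and overlapped. Per kilobase it was at 69.9 ± 2.68 in young libraries, beside 4053 ± 412 for Eif5a. Old minus young was 0.39 ± 0.09 (limma adjusted p = 0.0543, Benjamini-Hochberg). The authors' deposited table gives 0.86 for old against young (adjusted p = 0.000199) and 0.65 for middle-aged against young (adjusted p = 0.00654), the highest fold changes among the members in both comparisons. The per-library differences of this gene were thus well under the authors' values. None of its 50-base words occurs in another transcript. It lies on chromosome 3 at 28781276 to 28798846, plus strand.

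**Figure D4:**
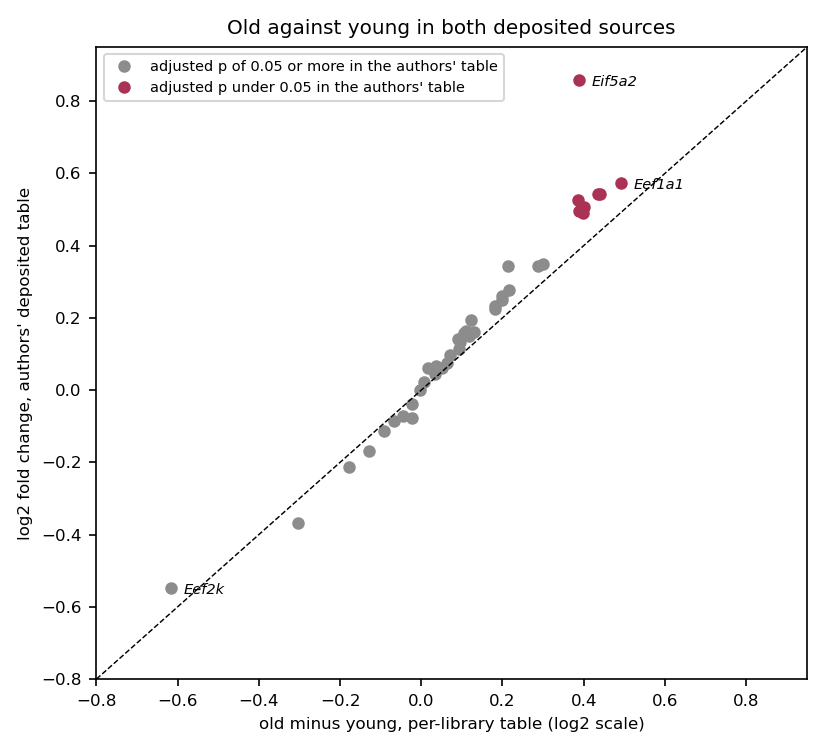
Old against young for the 41 members in the per-library table (x axis, log2 scale) and in the authors' deposited table (y axis, log2 fold change), with equal values on the dashed line. The 8 members called in the authors' table are in red, and Eif5a2, at 0.39 and 0.86, is the farthest from the line.

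Scanning factors had positive differences at both later ages. Eif1 was at 13.79, 14.04 and 13.89 in young, 14.11, 14.21 and 14.07 in middle-aged and 14.21, 14.07 and 14.29 in old libraries, with every young library below the others. Old minus young was 0.29 ± 0.09 (limma adjusted p = 0.162, Benjamini-Hochberg). Its paralog Eif1b was at 10.86, 10.95 and 10.79 in young, 11.05, 10.84 and 10.87 in middle-aged and 10.95, 10.89 and 10.96 in old libraries (0.07 ± 0.10, overlapping groups). Eif1 shares 31.6% of its 50-base words with 17 pseudogenes and the protein-coding gene Emd (15.9% with Emd), Eif1b none.

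The paralogs that encode eIF1A had different orders. Eif1a was at 11.76, 11.95 and 11.91 in young, 12.04, 12.23 and 11.96 in middle-aged and 12.05, 12.17 and 12.004 in old libraries, where both later ages were above young. Eif1ax was at 11.27, 11.27 and 11.38 in young, 11.66, 11.57 and 11.41 in middle-aged and 11.47, 11.54 and 11.19 in old libraries. Its middle-aged libraries were above the young ones, and old replicate 3 was its lowest library. Its old minus young difference was 0.10, and 0.20 without old replicate 3. Neither gene was called in any of the 3 comparisons by either source.

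No eIF2 or eIF2B gene was called by either source. Eif2s1, encoding the alpha subunit whose phosphorylation sets off the integrated stress response, had 0.05 ± 0.12 in old against young libraries. Eif2s3x, encoding the gamma subunit, was at 9.83, 9.93 and 9.81 in young, 10.06, 9.93 and 9.82 in middle-aged and 10.03, 10.15 and 9.77 in old libraries (0.12 ± 0.12). Its Y-chromosome relative Eif2s3y was at the bottom of the scale in these female mice. Of the 5 eIF2B genes 2 were above 0 and 3 below, with a median of -0.04. Eif2b4 had the lowest value, -0.30 ± 0.12, with 10.49, 10.49 and 10.59 in young, 10.47, 10.44 and 10.40 in middle-aged and 10.51, 10.14 and 10.02 in old libraries, where old replicate 1 overlapped young. Eif2a and Eif2d, which encode other proteins able to deliver tRNA, had 0.12 ± 0.12 and -0.13 ± 0.10. Many of these differences moved without old replicate 3: Eif2s1 was then at -0.02, Eif2s3x at 0.23, Eif2a at 0.21, Eif2d at -0.08 and Eif2b4 at -0.20. Eif2b3 went from -0.09 to -0.00 and Eif2b5 from 0.04 to 0.00.

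Among the remaining initiation factors, Eif5 had its highest mean at 15 months. It was at 11.51, 11.78 and 11.55 in young, 11.78, 11.73 and 11.90 in middle-aged and 11.64, 11.49 and 11.64 in old libraries, and the old libraries were all below the middle-aged ones (-0.21 ± 0.10, limma adjusted p = 0.512, Benjamini-Hochberg). Eif5b was at 11.34 in old replicate 3, beside 12.01 and 12.11 in the other old libraries. Old minus young for Eif5b was 0.02 with that library and 0.25 without it. Eif6, encoding a factor that keeps the large subunit from joining too early, had 0.18 ± 0.11. The genes that share only the prefix had 0.11 for Eef1e1 (a component of the tRNA synthetase complex), 0.01 for Eef1akmt1 and -0.00 for Eef2kmt (methyltransferases of eEF1A and eEF2), and 0.30 ± 0.17 for Eif1ad. In Eif1ad, old replicate 3 was at 11.27 and all other libraries were between 10.38 and 10.77. Without that library Eif1ad had 0.08, Eef1e1 0.05, Eef1akmt1 0.09 and Eef2kmt 0.03, and old minus young for Eif5 went from -0.02 to -0.05. Exons of Eif1ad, Eif5b and Eif2b4 overlap those of Banf1, Rev1 and Snx17 on the other strand, so their values share the uncertainty given for Eef1b2. The same holds for Eif2a (Serp1), Eif2d (Rassf5), Eif3j1 (Spg11), Eef2kmt (Alg1 and Gm15983), Eif1b (D830035M03Rik), Eif3d (Gm17638) and Eif6 (Gm16098).

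In middle-aged against young libraries limma called 0 of 41 members at an adjusted p under 0.05, beside 0.114% of all genes higher and 0% lower. At an unadjusted p under 0.05, 6 of 41 members were higher, a larger share than the 6.21% of all genes. Only 1 of 41 was lower, a smaller share than the 5.15% of all genes. The authors' deposited table called Eif3e and Eif5a2 higher and Eef2k lower, which are 2 and 1 of 41 members beside 3.26% and 2.53% of all genes. All middle-aged libraries were above the young ones in 10 of 41 members, a larger share than the 11.6% of all genes. They were all below in 5 of 41, a share near the 10% of all genes. The median difference was 0.06, and that over all genes tested was -0.00.

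Between 15 and 23 months limma called 0 of 41 members, beside 0.16% of all genes higher and 0.0134% lower. At an unadjusted p under 0.05, 3 of 41 members were higher, a share near the 5.42% of all genes. None of the 41 was lower, beside 4.76% of all genes. The authors' deposited table called 0 members, beside 0.859% higher and 0.466% lower. All old libraries were above the middle-aged ones in 6 of 41 members, a larger share than the 6.47% of all genes. They were all below in 1 of 41, a smaller share than the 6.41% of all genes. The 3 members with an unadjusted p under 0.05 were Eef1a1, Eef1g and Eif5a, at 0.27 ± 0.11, 0.23 ± 0.09 and 0.27 ± 0.11. The F test over 3 ages called 0 members (beside 0.836% of all genes), with 10 at an unadjusted p under 0.05 and a smallest adjusted p of 0.0786, for Eif3h (limma, Benjamini-Hochberg). The limma test of the later step (15 to 23 months) minus the earlier one (6 to 15 months) called 0 members, beside 0% of all genes, and had 2 at an unadjusted p under 0.05, Eif3c at 0.42 ± 0.17 and Eif5 at -0.41 ± 0.18.

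Members whose messages are known as TOP messages were looked at as a group. The list from textbook knowledge held Eef1a1, Eef1b2, Eef1d, Eef1g, Eef2, Eif3e, Eif3f and Eif3h. All 8 had a positive old minus young difference, with a median of 0.39, beside 0.07 for the other 33 members and -0.01 for all genes tested. They were not alike: Eef2, at 0.09, was below the median of the 41 members (0.11), and Eif5a, Eif5a2 and Eif3k, which are off the list, had 0.44, 0.39 and 0.39. Of the 8, limma called 2 as higher (beside 1.7% of all genes), and 5 were called higher in the authors' deposited table (beside 4.72%). Among the 33 others limma called 0, and 3 were called by the authors (Eif3k, Eif5a and Eif5a2 in their deposited table). The mean deviation of the 8 genes from their own means over 9 libraries was -0.18, -0.06 and -0.25 in young replicates 1 to 3, 0.10, 0.01 and -0.13 in middle-aged ones, and 0.22, 0.17 and 0.12 in old ones. Old libraries were thus above all others, and middle-aged replicate 3 was within the young range.

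For comparison, the 80 genes with ribosomal protein symbols, themselves TOP messages, deviated by -0.11, -0.19 and -0.28 in young, 0.07, 0.08 and 0.00 in middle-aged and 0.17, -0.00 and 0.26 in old libraries. The order of libraries was not the same. Old replicate 3 was the highest old library for ribosomal protein genes and the lowest old one for the 8 members. The 33 other members stayed between -0.07 and 0.07 in all libraries, and their ages overlapped.

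**Figure D5:**
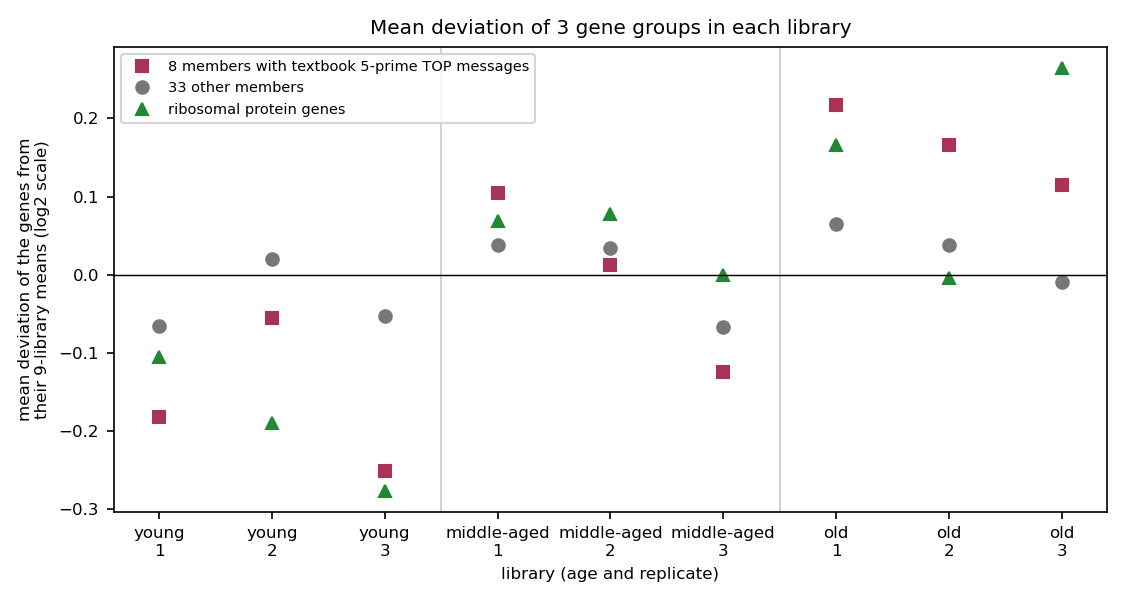
Mean deviation of 3 gene groups from their 9-library means (y axis, log2 scale) in each library (x axis). The 8 TOP members lie between 0.12 and 0.22 in old libraries and between -0.25 and -0.06 in young ones, while the 33 other members stay near 0.

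Sequences around RefSeq gene starts (GRCm38.p6, 250 bases before to 50 after) were found for 31 of the 41 members. A run of 9 or more C and T beginning with C, from 20 bases before to 50 after the start and on the gene's strand, was present in 8 of the 31 (25.8%), beside 15.4% of all 27025 genes with a window and 16.2% of those tested. Of the 8 TOP-list members, 4 had a window and 2 of these a run (Eef1a1 and Eif3f). The longest runs of Eef1b2 and Eef2 were 5 and 7 bases. The other members with a run were Eif2b5, Eif2s3x, Eif3a, Eif3k, Eif3l and Eif5a, all off the TOP list. Their old minus young differences were 0.04, 0.12, 0.13, 0.39, 0.06 and 0.44, so the list and the runs did not mark the same genes. The runs of Eif3f, Eif3k and Eef1a1 are shown because Eef1a1 rose in old libraries, Eif3k was called in the authors' deposited table and Eif3f is on the TOP list. They are given 5′ to 3′ on the gene's strand with the run in capitals.
Eif3f: ttctaggCTCTCTCTCTTTCTCggcaagat
Eif3k: ctgaaagcgCCTTTCCCTTTgccttccttg
Eef1a1: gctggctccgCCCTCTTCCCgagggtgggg
They lie at chr7:108934404-108934433 (plus strand), chr7:28981855-28981884 (minus strand) and chr9:78481710-78481739 (minus strand). The run of Eif3f is 15 bases long and begins at position -4 from the start, that of Eif3k is 11 bases long and begins at position 14, and that of Eef1a1 is 10 bases long and begins at position -5. Annotated starts can differ from the starts used in microglia, so a run is a description of these letters only.

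The E-box letters CACGTG, a palindrome that reads the same on both strands, occurred in the 300-base windows of 8 of the 31 members (25.8%), beside 8.09% of all genes with a window and 11.4% of those tested. They were Eef2, Eef2k, Eif1b, Eif3a, Eif3f, Eif3k, Eif5a and Eif5a2. The letters CCGGAAG, which hold the core bound by ETS factors, occurred on either strand in 12 of 31 (38.7%), beside 9.93% and 19.1%, and neither motif contains the other. Genes with several annotated starts had more windows to match. An E-box is shown in capitals for Eif3k and both eIF5A genes, which are members called in the authors' deposited table. Another is shown for Eef2k, which had the lowest difference. The Eif5a2 site shown begins at position -117, and a further site in that window, at -142, is not shown. Other start windows of Eif5a also hold these letters and are not shown.
Eif3k: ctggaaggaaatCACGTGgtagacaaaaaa
Eif5a: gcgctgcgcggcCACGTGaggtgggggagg
Eif5a2: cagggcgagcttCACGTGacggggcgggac
Eef2k: cccggggacggcCACGTGagcccgggcgtg
These stretches lie at chr7:28981915-28981944 (minus strand), chr11:69920791-69920820 (minus), chr3:28781148-28781177 (plus) and chr7:120842788-120842817 (plus). The motif was thus found both in members with positive and in a member with negative differences.

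Other genes of the translation pathway were taken from lists. Over all genes tested, limma called 1.7% higher and 0.301% lower in old against young libraries. Of 16 genes of the cap-binding complex and its partners, 2 rose and 0 fell in old against young libraries: Pabpc1, encoding the poly(A)-binding protein, and Eif4ebp1, encoding the repressor 4E-BP1. The median of those 16 was 0.06. Of 12 genes of the eIF2 kinases, phosphatases and the ATF4 arm, 1 rose: Asns, encoding asparagine synthetase, at 0.81 ± 0.11 (limma adjusted p = 0.00399, Benjamini-Hochberg). Eif2ak1, encoding the haem-regulated eIF2 kinase, was at 0.31 ± 0.12 without a call by limma, and at 0.48 with an adjusted p of 0.0398 in the authors' deposited table.

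Of 9 enzymes that make hypusine on eIF5A or diphthamide on eEF2, limma called 0, with 0 at an unadjusted p under 0.05, and their median was -0.04. Of 11 genes of the tRNA synthetase complex, in which Eef1e1 takes part, limma called 0, with 1 higher and 1 lower at an unadjusted p under 0.05. Of 7 termination and recycling genes limma called 0, with 1 higher and 1 lower at an unadjusted p under 0.05. The authors' deposited table called Mcts1 higher (0.52) and Gspt1 and Gspt2 lower (-0.60 and -0.16), beside 4.72% and 2.9% of all genes. Gspt2 was near the filter minimum, at 3.93 to 4.03 in all libraries. Of 17 TOP genes outside the members, limma called 6 higher (Npm1, Pabpc1, Rplp0, Rps3a1, Rps4x and Rpsa) and 0 lower. The shares over all genes were 1.7% and 0.301%. The median of the 17 was 0.30. Pabpc1 is also on the cap-binding list. Rplp0, Rps3a1, Rps4x and Rpsa are also among the ribosomal protein genes compared above, so the 2 groups are not separate.

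The highest and lowest values of the members were not spread evenly over libraries. Old replicate 1 was the highest of 9 in 12 members (29.3%, beside 7.58% of all genes tested), and young replicates 1 and 3 were the lowest in 11 and 10 (26.8% and 24.4%, beside 10.7% and 7.95%). Middle-aged replicate 3 was the lowest in another 10 (24.4%, beside 12.5%). Old replicate 3 was the highest in 7 and the lowest in 6 members, and these shares (17.1% and 14.6%) were under its shares over all genes of 22.3% and 26.1%. The members in which it was lowest were Eef2k, Eif1ax, Eif2b3, Eif2b4, Eif2s3x and Eif5b.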

How the data were processed

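Microglial RNA of 9 libraries was used, and each library was grouped by its title. The submitters' processing notes name CASAVA, cutadapt 1.13, STAR 2.5.3, DESeq2 1.16.1 and the build mm10. Which tool did what, the counter, its use of strand and the transformation of the values were not stated there. The deposited per-library values are on a log2 scale. In the comparison tables, the authors gave a base mean (a signal), log2 fold changes, a statistic (score) and raw and adjusted p-values, per the file headers. Read depth is unknown, so precision rests on the spread between libraries, which are pools, and p-values measure only that spread.

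All genes with a linear value of at least 10 in 3 or more libraries (14955 of 22036) entered 1 linear model of the 3 ages in limma 3.58.1 (R 4.3.3), which let the variance follow the mean. Tests were two-sided, adjusted over all those genes by Benjamini-Hochberg, with a threshold of 0.05. The fit was tested on simulated data. Members, lists and tests were chosen with earlier results of these data known, and the TOP list from general knowledge. Values in every library are given for called members, then for those with the smallest F-test p up to 14 members, and for pairs of close relatives. Other members given so (Eef2, Eif5b, Eif1ad) were chosen after their values were seen. Gene models, transcript lengths and 50-base words came from GENCODE M21 (GRCm38), and start windows from RefSeq (GRCm38.p6). Alternatives were other filters, pseudocounts and scalings, no variance trend, weighted libraries, a block for replicate number, 2 ages alone, and each library left out.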

Additional observations from a re-analysis of the deposited data

How the results depend on the processing

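In old against young libraries, where 2 members were called, the count was 0 with no filter on low values, 4 with a stricter filter (50 in 3 libraries), 1 with a pseudocount of 8, 4 with no variance trend, 11 (10 higher, 1 lower) with library weights, 1 with the replicate block and 0 with the 2 ages fitted alone. It lay between 0 and 3 when each library was left out in turn. It stayed at 2 with a pseudocount of 1, median centring and quantile normalization. In middle-aged against young libraries the count was 2 with library weights, and for the F test it was 2 with no variance trend and 9 with library weights. The other settings, each left-out library included, gave 0 for these and for old against middle-aged libraries. Library weights gave old replicate 3 a weight of 0.241 and young replicate 3 one of 3.99. The cause of these differences was not tested. The replicate numbers are not said to pair libraries, and deviations of same-numbered libraries correlated at -0.24 to 0.23, against -0.44 to 0.42 for other pairs across ages. With the block, Eef1a1 kept its call and Eif3h lost it (limma adjusted p = 0.0649, Benjamini-Hochberg). No called value changed sign. Depth is unknown, and 3 libraries an age limit the precision of single genes.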
